A study of Mus musculus with 6 samples.

Results

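The transcripts described here encode 10 proteins, 9 enzymes and a chaperone, together called the 10 enzymes here, that build the sugar chains of intestinal mucus and of the epithelial surface. They were chosen by gene symbol from a table of 54012 mouse genes: Fut1, Fut2, Fut4, B4galnt2, C1galt1, C1galt1c1, Gcnt3, Gcnt4, B3gnt7 and St6galnac1. Each had 1 row in the table. RNA sequencing was done on small intestine of 3 mice labelled TLR4ΔIEC and 3 mice labelled wild type (WT), all aged 8 to 12 weeks. The genotype name and the series title describe a loss of Tlr4, the receptor for bacterial lipopolysaccharide, from intestinal epithelial cells. The Cre driver, the deleted exons, sex, strain, litter and the stretch of intestine are not given in the sources used here, and the labels name no treatment. Values are TPM, a transcript level that is scaled for transcript length and to the same total in each library. The depth of each library is unknown, and no counting error can be given.

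Mucins carry chains that start with N-acetylgalactosamine (GalNAc) on serine or threonine. C1galt1 adds galactose to that first sugar to make the core 1 structure, and it folds only with the help of its chaperone C1galt1c1, also called Cosmc. Gcnt3 and Gcnt4 branch core 1 into core 2, B3gnt7 lengthens chains with N-acetylglucosamine, and the ends are capped with fucose, sialic acid or a further GalNAc. Fucose on the surface of the small intestine is laid down mostly by Fut2 and serves gut bacteria as food, and its amount is known to follow bacterial and cytokine signals. B4galnt2 adds the GalNAc of the Sd(a) blood group antigen.

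Several checks bear on all the values below. Levels of Tlr4 itself were 1.29, 1.22 and 4.81 TPM where the label was TLR4ΔIEC, against 0.65, 0.57 and 0.7 TPM in the WT libraries. That direction is not that of a loss of the transcript, so the level of Tlr4 does not check the labels, and each direction below compares libraries by their labels. TLR4ΔIEC replicate 2 stood apart, with 12221 genes that reached 1 TPM, against 13561 and 13634 in the other TLR4ΔIEC libraries and 13197 to 13390 in the WT libraries, and 12836 TPM of the ribosomal RNA gene Rn18s, against 3806 to 7032 TPM in the other 5 libraries. Vil1, the villin gene of intestinal epithelium, lay at 1007.7 to 1380.2 TPM in TLR4ΔIEC libraries and at 856.3 to 960.5 TPM in WT libraries, so epithelial RNA was present in all 6. The samples were bulk tissue, in which fewer cells of a type and less RNA per cell cannot be told apart. Alpha-defensins, the antimicrobial peptides of Paneth cells, took 18.4, 5.21 and 6.61% of TPM in TLR4ΔIEC libraries and 26.5, 25.3 and 28.7% in WT libraries. Because TPM sum to a fixed total, a lower share of these genes raises the TPM of the others, and over all 13458 tested genes the log2 fold changes had a median of 0.16. In TPM rescaled without alpha-defensin, mitochondrial and 18S-like genes that median was −0.12.

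The extension enzyme B3gnt7, the branching enzymes Gcnt3 and Gcnt4 and the capping enzyme B4galnt2 were higher in each TLR4ΔIEC library than in any WT library, by 1.3 to 2.36 times between the means. The fucosyltransferase Fut1 was lower in each TLR4ΔIEC library than in any WT library. Fut2, the fucosyltransferase best known from this tissue, varied more among the TLR4ΔIEC libraries than between the genotypes. Of the 10 enzymes, 8 reached a mean of 1 TPM over the 6 libraries and were tested with limma on log2(TPM + 1). None passed an adjusted p of 0.05, where 0.119% of all tested genes did (0.0446% higher and 0.0743% lower). At an unadjusted p under 0.05 there were 3, all of them higher and 0 lower, against 21.2% of all tested genes (18.4% higher and 2.77% lower). Of the 8 tested enzymes, 4 (50%) had all TLR4ΔIEC libraries above all WT libraries, against 24.1% of all tested genes, and 0 had all below, against 3.53%. The median log2 fold change of the 8 was 0.47, and 6 of the 8 lay above the median of all tested genes. Under quantile normalization the median of the 8 was 0.22, against 0.02 for all tested genes. Without alpha-defensin, mitochondrial and 18S-like genes it was 0.16, against −0.12 for all tested genes.

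**Figure D1:**
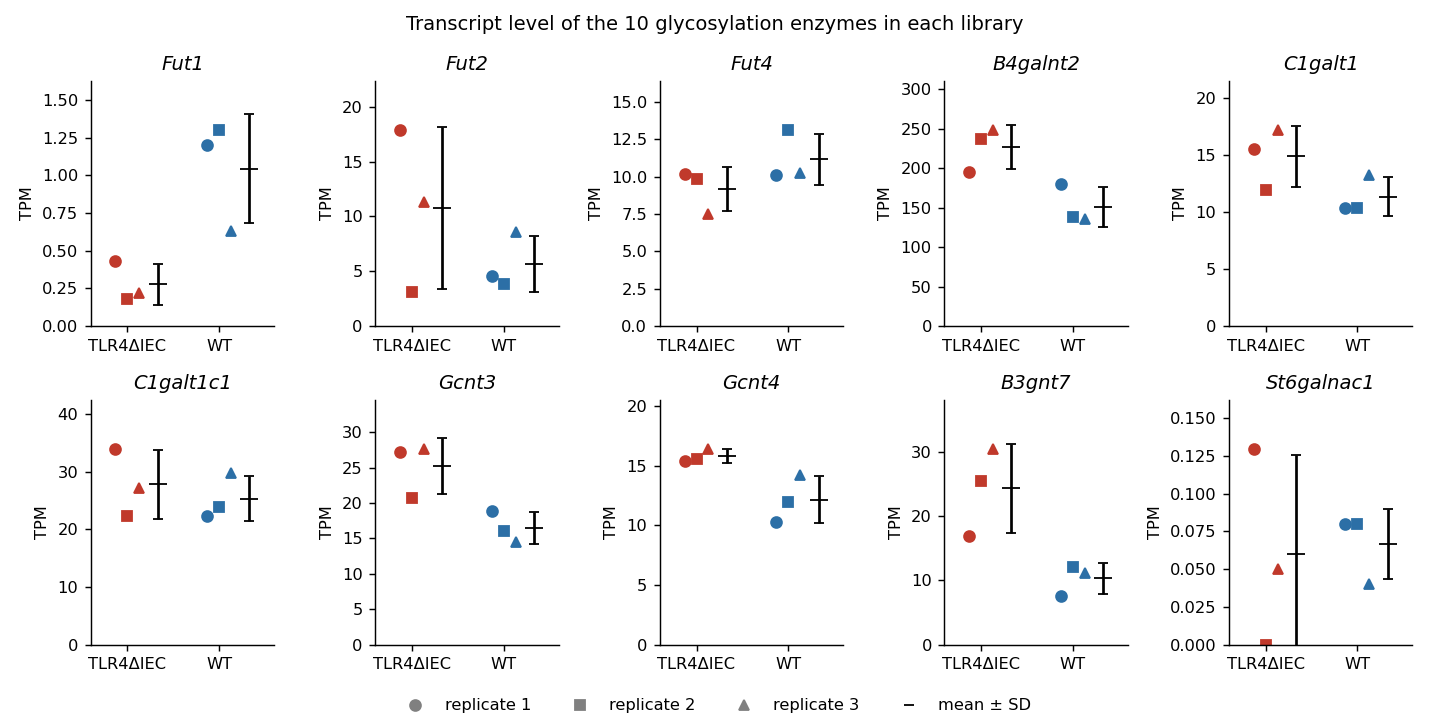
TPM (vertical axes, linear and starting at 0) of each of the 10 enzymes in the 3 TLR4ΔIEC libraries and the 3 WT libraries, with the mean ± SD of each genotype, where the SD bar of St6galnac1 in TLR4ΔIEC is cut off at 0. B4galnt2, Gcnt3, Gcnt4 and B3gnt7 have all TLR4ΔIEC points above the WT points, Fut1 has all of them below, and the other 5 overlap.

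B4galnt2 was by far the most abundant of the 10. Together the 10 transcripts summed to 332.9, 346.5 and 386.4 TPM in TLR4ΔIEC libraries and to 265.7, 230.2 and 238.3 TPM in WT libraries. B4galnt2 made up 58.6, 68.5 and 64.2% of that sum in TLR4ΔIEC libraries and 67.8, 59.7 and 57.0% in WT libraries. The shares overlapped, so the share of B4galnt2 did not part the genotypes although the sum did. In TLR4ΔIEC libraries the order of mean levels was B4galnt2, C1galt1c1, Gcnt3, B3gnt7, Gcnt4, C1galt1, Fut2, Fut4, Fut1 and St6galnac1. In WT libraries it was B4galnt2, C1galt1c1, Gcnt3, Gcnt4, C1galt1, Fut4, B3gnt7, Fut2, Fut1 and St6galnac1. Neighbours in the TLR4ΔIEC order whose ranges did not overlap were B4galnt2 over C1galt1c1, B3gnt7 over Gcnt4, Fut4 over Fut1 and Fut1 over St6galnac1. In the WT order they were B4galnt2 over C1galt1c1, C1galt1c1 over Gcnt3, Gcnt3 over Gcnt4, Fut2 over Fut1 and Fut1 over St6galnac1. The ranges of the remaining neighbours overlapped. Of these, only B3gnt7 over Fut2 in the WT order held within each of the 3 libraries. B3gnt7 thus stood above Gcnt4 without overlap in TLR4ΔIEC libraries, whereas in WT libraries its mean lay below that of Gcnt4, with ranges of 7.64 to 12.17 TPM for B3gnt7 and 10.28 to 14.19 TPM for Gcnt4.

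The core 1 pair acts once the first sugar is in place. C1galt1 (ENSMUSG00000042460, chromosome 6, 7844842 to 7875687, plus strand, GRCm38) had 15.55, 11.97 and 17.22 TPM in TLR4ΔIEC libraries and 10.38, 10.41 and 13.31 TPM in WT libraries. TLR4ΔIEC replicates 1 and 3 lay above every WT library, while TLR4ΔIEC replicate 2 lay below WT replicate 3. TLR4ΔIEC libraries averaged 14.9 ± 2.68 TPM and WT libraries 11.4 ± 1.68 TPM (SD, n = 3 each), with a log2 fold change of 0.36 (SE 0.18, limma adjusted p = 0.314). Its chaperone C1galt1c1 (ENSMUSG00000048970, chromosome X, 38630785 to 38635087, minus strand) had 34.07, 22.27 and 27.15 TPM in TLR4ΔIEC libraries and 22.4, 23.85 and 29.87 TPM in WT libraries. The genotypes were interleaved, with TLR4ΔIEC libraries both highest and lowest. It had a log2 fold change of 0.12 (SE 0.20, limma adjusted p = 0.77), and it was negative, −0.20 to −0.03, under each of 4 other scalings and also without TLR4ΔIEC replicate 1 (−0.03), so no direction can be given. Those scalings were median-of-ratios scaling, quantile normalization, and TPM rescaled without the 20 highest genes or without alpha-defensin, mitochondrial and 18S-like genes. The chaperone stood at 2.19, 1.86 and 1.58 times its client C1galt1 in TLR4ΔIEC libraries and at 2.16, 2.29 and 2.24 times in WT libraries, which overlapped (two-sided exact permutation, p = 0.2, where 3 against 3 allows no value under 0.1). The ratio was spread more widely in TLR4ΔIEC libraries (1.88 ± 0.307) than in WT libraries (2.23 ± 0.0675, SD, n = 3 each).

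Branching enzymes came next. Gcnt3 (ENSMUSG00000032226, chromosome 9, 70031496 to 70038088, minus strand), the mucin-type branching enzyme that makes core 2 and core 4, had 27.24, 20.67 and 27.69 TPM in TLR4ΔIEC libraries and 18.85, 15.97 and 14.48 TPM in WT libraries. All 3 TLR4ΔIEC libraries lay above the highest WT library, the lowest of them (replicate 2) by a small margin. TLR4ΔIEC libraries averaged 25.2 ± 3.93 TPM and WT libraries 16.4 ± 2.22 TPM (SD, n = 3 each), a ratio of 1.53, with a log2 fold change of 0.58 (SE 0.17, unadjusted p = 0.0115, limma adjusted p = 0.139). Under the 4 other scalings its log2 fold change was 0.28 to 0.44, and the genotypes overlapped under 3 of them, the exception being median-of-ratios scaling. Gcnt3 stood at 1.75, 1.73 and 1.61 times C1galt1 in TLR4ΔIEC libraries and at 1.82, 1.53 and 1.09 times in WT libraries, which overlapped (two-sided exact permutation, p = 0.5).

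Gcnt4 (ENSMUSG00000091387, chromosome 13, 96924689 to 96950906, plus strand), another core 2 branching enzyme, had 15.4, 15.59 and 16.43 TPM in TLR4ΔIEC libraries and 10.28, 11.98 and 14.19 TPM in WT libraries. The TLR4ΔIEC libraries were close together and all above WT. For Gcnt4 the log2 fold change was 0.36 (SE 0.16, unadjusted p = 0.0507, limma adjusted p = 0.238), and under the other scalings it was 0.06 to 0.22 with overlap. Gm48597, a transcript on the opposite strand that overlaps an exon of Gcnt4, had 14.41, 14.35 and 23.32 TPM in TLR4ΔIEC libraries and 8.01, 10.33 and 12.02 TPM in WT libraries. It too separated the genotypes, and since strand-aware counting is not stated, reads of Gcnt4 and Gm48597 cannot be told apart. Antisense genes at B4galnt2 (Gm11534, up to 6.24 TPM) and B3gnt7 (Gm28626, up to 0.66 TPM) stood far below those enzymes. The third branching enzyme of the family, Gcnt1, which was not among the 10, stood at 5.95, 2.61 and 6.02 TPM in TLR4ΔIEC libraries and at 2.42, 1.3 and 1.61 TPM in WT libraries (log2 fold change 1.03, SE 0.32, limma adjusted p = 0.144). Of the summed TPM of Gcnt1, Gcnt3 and Gcnt4, the Gcnt3 share was 56.1, 53.2 and 55.2% in TLR4ΔIEC libraries and 59.7, 54.6 and 47.8% in WT libraries, so the make-up of the branching enzymes overlapped while each of the 3 lay higher in every TLR4ΔIEC library.

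B3gnt7 showed the largest difference of the 8 tested enzymes. It adds N-acetylglucosamine to galactose and so extends poly-N-acetyllactosamine and keratan sulfate chains. The gene (ENSMUSG00000079445, chromosome 1, 86302832 to 86307305, plus strand) had 16.97, 25.57 and 30.6 TPM in TLR4ΔIEC libraries and 7.64, 12.17 and 11.22 TPM in WT libraries. Every TLR4ΔIEC library exceeded the highest WT library, TLR4ΔIEC replicate 1 by the least. TLR4ΔIEC libraries averaged 24.4 ± 6.89 TPM and WT libraries 10.3 ± 2.39 TPM (SD, n = 3 each), a ratio of 2.36, with a log2 fold change of 1.15 (SE 0.26, unadjusted p = 0.00297, limma adjusted p = 0.101). By exact permutation of the 6 libraries (two-sided) p was 0.1, the lowest possible. Without TLR4ΔIEC replicate 1 the log2 fold change was 1.38 and passed the threshold (limma adjusted p = 0.0435), in a fit where 1.96% of all tested genes passed in the higher direction. With each of the other libraries left out in turn, and under every other setting tried, B3gnt7 did not pass, and its adjusted p ran up to 0.362. Its log2 fold change was positive under all 19 settings, 0.86 to 1.38, and its genotypes did not overlap under any of the 4 other scalings.

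**Figure D2:**
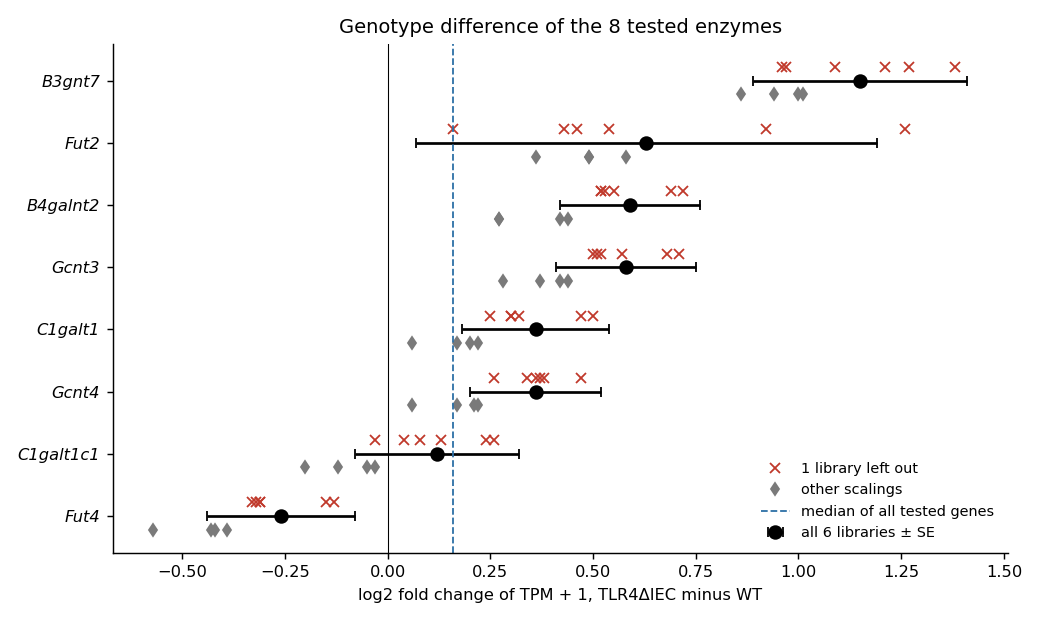
Log2 fold change of TPM + 1, TLR4ΔIEC minus WT (horizontal axis), of the 8 tested enzymes: black points with bars are the fit of all 6 libraries ± SE, red crosses the fits with 1 library left out, grey diamonds the 4 other scalings, and the dashed line the median over all tested genes at 0.16. B3gnt7 stays at 0.86 or above throughout, Fut2 moves from 0.16 to 1.26 with the library left out, and C1galt1c1 lies on both sides of 0.

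RefSeq's start-site windows (assembly GRCm38.p6, 250 bases before to 50 bases after the start) held 7 entries for 6 of the 10 enzymes, namely Fut1, Fut4, B4galnt2, C1galt1, B3gnt7 and, with 2 windows, Gcnt4. They were searched on both strands for 5 short motifs. AGATAA, bound by GATA factors, lies in 11.2% of the 32851 windows of the table. TTTATG, bound by CDX factors, lies in 11.9%, and TTCNNNGAA, bound by STAT factors, in 8.3%. The HNF1 palindrome lies in 0.0609%, and CAAAGTCCA, of HNF4, in 0.475%. Shown here are the window of B3gnt7, as the enzyme with the largest difference, that of B4galnt2, as the most abundant, and the upstream window of Gcnt4, whose reads cannot be told from those of an antisense gene. Capitals mark motif matches. They lie at chr1:86302971-86303270 (plus strand) for B3gnt7, chr11:95914822-95915121 (minus strand) for B4galnt2 and chr13:96924094-96924393 (plus strand) for Gcnt4.
B3gnt7: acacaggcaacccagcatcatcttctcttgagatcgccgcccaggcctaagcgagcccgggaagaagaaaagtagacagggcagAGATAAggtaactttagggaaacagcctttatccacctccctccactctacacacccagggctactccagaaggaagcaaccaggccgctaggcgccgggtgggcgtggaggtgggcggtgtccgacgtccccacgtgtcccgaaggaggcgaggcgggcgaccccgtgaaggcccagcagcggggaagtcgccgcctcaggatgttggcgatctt
B4galnt2: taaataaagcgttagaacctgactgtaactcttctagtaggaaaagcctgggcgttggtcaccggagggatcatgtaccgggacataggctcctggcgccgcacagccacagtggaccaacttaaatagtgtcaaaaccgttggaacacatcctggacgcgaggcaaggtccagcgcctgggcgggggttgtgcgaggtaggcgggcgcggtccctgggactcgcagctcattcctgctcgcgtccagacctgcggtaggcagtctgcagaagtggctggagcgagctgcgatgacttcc
Gcnt4: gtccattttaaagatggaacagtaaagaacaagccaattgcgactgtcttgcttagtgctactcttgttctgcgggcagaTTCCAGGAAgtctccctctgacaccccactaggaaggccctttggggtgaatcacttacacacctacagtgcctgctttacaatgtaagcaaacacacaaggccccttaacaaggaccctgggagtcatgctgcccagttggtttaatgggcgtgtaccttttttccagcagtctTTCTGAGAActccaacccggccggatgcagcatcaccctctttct
The B3gnt7 window holds AGATAA with its first base at position −166 from the start site. The Gcnt4 window holds TTCNNNGAA at 2 places, first bases −170 and 6, and the matches do not overlap another motif. None of the 5 motifs was found in the windows of B4galnt2, C1galt1, Fut1, Fut4 or the downstream window of Gcnt4. A match is a string of letters and not evidence of binding. The windows differed in base composition: C1galt1 had 82.7% G and C, more than 99.6% of all windows, B3gnt7 had 62.0% and B4galnt2 59.0%, against a median of 52.7%.

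Of the 2 enzymes that add fucose to terminal galactose, Fut2 was the more abundant in every library. The gene (ENSMUSG00000055978, chromosome 7, 45648591 to 45666394, minus strand) had 17.89, 3.07 and 11.33 TPM in TLR4ΔIEC libraries and 4.61, 3.79 and 8.54 TPM in WT libraries. TLR4ΔIEC libraries held both the 2 highest values and the lowest one, that of replicate 2, so the genotypes overlapped. TLR4ΔIEC libraries averaged 10.8 ± 7.43 TPM and WT libraries 5.65 ± 2.54 TPM (SD, n = 3 each), with a log2 fold change of 0.63 (SE 0.56, limma adjusted p = 0.564, two-sided exact permutation p = 0.4). A single library set the size of this difference: it was 1.26 without TLR4ΔIEC replicate 2 (limma adjusted p = 0.184) and 0.16 without TLR4ΔIEC replicate 1.

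Fut1 (ENSMUSG00000008461, chromosome 7, 45617289 to 45621059, plus strand), which makes the same fucose linkage and lies 27532 bases from Fut2 with Izumo1, Rasip1 and Mamstr between them, was much scarcer. It had 0.43, 0.18 and 0.22 TPM in TLR4ΔIEC libraries and 1.2, 1.3 and 0.63 TPM in WT libraries. All TLR4ΔIEC libraries lay below all WT libraries, as did 3.51% of the 26866 genes above 0 TPM in any library. TLR4ΔIEC libraries averaged 0.277 ± 0.134 TPM and WT libraries 1.04 ± 0.361 TPM (SD, n = 3 each), 0.265 times, with an two-sided exact permutation p of 0.1, the smallest possible. Fut1 missed the filter of a mean of 1 TPM, and with no filter its log2 fold change was −0.67 (SE 0.18, unadjusted p = 0.00843, limma adjusted p = 0.22). At this level the transcript was scarce in all 6 libraries. Fut2 thereby made up 97.7, 94.5 and 98.1% of the summed TPM of Fut1 and Fut2 in TLR4ΔIEC libraries and 79.3, 74.5 and 93.1% in WT libraries, with no overlap (96.7 ± 1.98% in TLR4ΔIEC libraries and 82.3 ± 9.68% in WT libraries, SD, n = 3 each, two-sided exact permutation p = 0.1). The share was higher in TLR4ΔIEC replicate 2 as well, the library in which Fut2 itself was lowest.

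**Figure D3:**
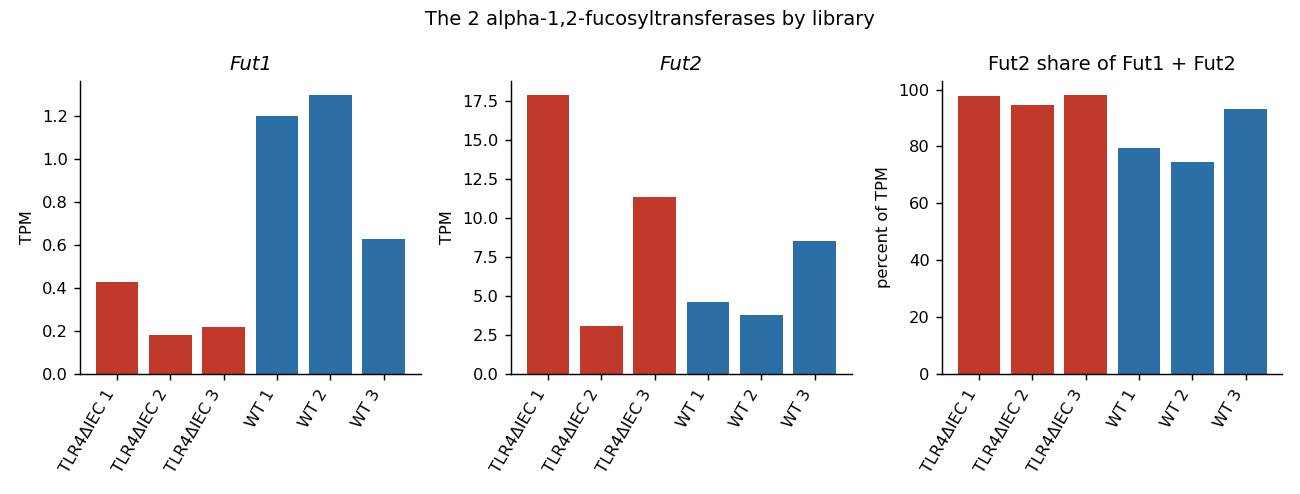
Bars give the TPM of Fut1 (left) and Fut2 (middle) and the Fut2 percentage of their sum (right) in each library, TLR4ΔIEC replicates 1 to 3 and then WT replicates 1 to 3. Fut1 is at 0.43 TPM or below in TLR4ΔIEC and at 0.63 TPM or above in WT, Fut2 overlaps between the genotypes, and the Fut2 share is at 94.5% or above in TLR4ΔIEC and at 93.1% or below in WT.

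Fut4 (ENSMUSG00000049307, chromosome 9, 14748320 to 14752393, minus strand), which places fucose on N-acetylglucosamine to form the Lewis x structure, had 10.16, 9.85 and 7.47 TPM in TLR4ΔIEC libraries and 10.12, 13.11 and 10.21 TPM in WT libraries. TLR4ΔIEC replicates 2 and 3 lay below all WT libraries and replicate 1 just above the lowest of them. It was the 1 tested enzyme of the 8 with a negative log2 fold change, −0.26 (SE 0.18, limma adjusted p = 0.454), and stayed negative under all 19 settings, −0.57 to −0.13. Fut4 was lower in TLR4ΔIEC libraries without overlap once TPM were rescaled without the 20 highest genes, without alpha-defensin, mitochondrial and 18S-like genes, or by quantile normalization. Under median-of-ratios scaling it overlapped. The median of all tested genes was 0.01, −0.12 and 0.02 in the scalings without overlap, in that order, against 0.16 as deposited. How many of all genes were lower without overlap in them was not counted.

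Among the capping enzymes, B4galnt2 (ENSMUSG00000013418, chromosome 11, 95865943 to 95914891, minus strand) had 195.08, 237.36 and 248.24 TPM in TLR4ΔIEC libraries and 180.11, 137.49 and 135.78 TPM in WT libraries. TLR4ΔIEC libraries were all higher, with TLR4ΔIEC replicate 1 and WT replicate 1 the closest across genotypes. TLR4ΔIEC libraries averaged 226.9 ± 28.1 TPM and WT libraries 151.1 ± 25.1 TPM (SD, n = 3 each), a ratio of 1.5, and its mean exceeded that of 95.3% of all tested genes. Its log2 fold change was 0.59 (SE 0.17, unadjusted p = 0.0117, limma adjusted p = 0.14), and 0.27 to 0.44 under the other scalings, with overlap under 3 of the 4. St6galnac1 (ENSMUSG00000009588, chromosome 11, 116765025 to 116775507, minus strand), which puts sialic acid on the first GalNAc and so ends the chain, had 0.13, 0 and 0.05 TPM in TLR4ΔIEC libraries and 0.08, 0.08 and 0.04 TPM in WT libraries. It was at or near 0 in every library and was not tested.

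The rest of the glycosylation route was described by 11 lists with 98 tested genes, the 8 tested enzymes included. None of the 98 passed the limma threshold (smallest adjusted p = 0.0913). At an unadjusted p under 0.05 there were 37 higher and 3 lower, where 18.4% of all tested genes were higher and 2.77% lower. In 44 of the 98 (44.9%) all TLR4ΔIEC libraries lay above all WT libraries, against 24.1% of all tested genes, and in 4 (4.08%) all lay below, against 3.53%. Their median log2 fold change was 0.33. These values depended on the scaling: without alpha-defensin, mitochondrial and 18S-like genes 18 of the 98 had an unadjusted p under 0.05, as did 1581 of 13408 tested genes, and the median of the 98 was 0.02, against −0.12 for all genes. Under quantile normalization there were 21 of the 98, as there were 1767 of 13458 tested genes, and the median of the 98 was 0.1, against 0.02 for all genes. The lists differed in their medians. The supply of sulfate and sulfotransferases (0.49, 5 of 8 higher without overlap), the core enzymes (0.47, 4 of 6), GDP-fucose supply together with fucose removal (0.44, 5 of 8, of which Fuca1 and Fuca2 encode fucosidases), the supply of other nucleotide sugars (0.42, 8 of 12) and chain extension (0.38, 7 of 14) lay above the median of all genes. The fucosyltransferases (0.03, 0 of 5), the terminal GalNAc transferases (−0.2, 2 of 7) and the sialyltransferases (−0.3, 0 of 10) lay below it. The cytokine genes set beside Fut2 had a median of 0.44 (4 of 10). The list of sialic acid supply and removal (0.29, 3 of 7, namely Nans, Cmas and the sialidase gene Neu1) and the GalNAc-transferases that start the chain (0.23, 6 of 11) lay just above it. These differences between lists are descriptions and were not tested.

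In the fucose branch, Fut8, which fucosylates the core of N-glycans, had the highest mean TPM of the fucosyltransferases, and it overlapped between genotypes (17.8 ± 2.98 TPM in TLR4ΔIEC libraries and 19.1 ± 1.13 TPM in WT libraries, SD, n = 3 each). Of the 11 listed fucosyltransferases 5 were tested, and Fut9 was at 0 in all 6 libraries. Gmds, which makes the first step of GDP-fucose from GDP-mannose, was abundant and overlapped (224.6 ± 53.1 TPM in TLR4ΔIEC libraries and 210.6 ± 41.2 TPM in WT libraries). Higher without overlap were 5 of the 8 tested genes of GDP-fucose supply and fucose removal, against 24.1% of all tested genes. The largest differences were those of Fuca2, a fucosidase that removes fucose (log2 fold change 0.82, SE 0.23, limma adjusted p = 0.121), and Fpgt, which recycles free fucose (0.74, SE 0.20, limma adjusted p = 0.118). The others were Slc35c1 (0.5, SE 0.22, limma adjusted p = 0.257), Fuca1 (0.49, SE 0.15, limma adjusted p = 0.143) and Gfus (0.39, SE 0.16, limma adjusted p = 0.219). Slc35c2, a Golgi transporter linked to fucosylation, was lower without overlap (−0.55, SE 0.23, limma adjusted p = 0.236).

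Of the starting enzymes, Galnt1, Galnt3 and Galnt6 were higher without overlap, with log2 fold changes of 0.52, 0.51 and 0.48, and Galnt2 was lower at −0.58. The core 3 enzyme B3gnt6, which competes with C1galt1 for the same sugar, averaged 3.78 ± 0.969 TPM in TLR4ΔIEC libraries and 2.1 ± 0.361 TPM in WT libraries (SD, n = 3 each), higher without overlap. Beside B3gnt7 in the extension list stood B4galt4 at 0.98, B4galt1 at 0.74, both galactosyltransferases that alternate with it along the chain, and B3gnt3 at 0.6. B4galt1 had 47.71, 55.95 and 65.38 TPM in TLR4ΔIEC libraries and 32.39, 33.4 and 33.1 TPM in WT libraries, and the WT libraries differed little. Without TLR4ΔIEC replicate 1, 5 of the pathway genes passed the threshold, namely B3gnt7, B4galt1, B4galt4, Fuca2 and the nucleotide sugar transporter Slc35d1, all of them higher, in the fit where 1.96% of all tested genes passed in that direction.

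At the ends of the chains, B4galnt3, a relative of B4galnt2, was higher without overlap (log2 fold change 0.87) and Gbgt1, of the Forssman synthase family, was lower (−0.52). St3gal4, which adds sialic acid to galactose, the kind of chain end on which B4galnt2 acts, was the most abundant sialyltransferase, with 1834.2 ± 381.6 TPM in TLR4ΔIEC libraries and 1495.3 ± 47.3 TPM in WT libraries (SD, n = 3 each), and overlapped. St3gal6 was lower without overlap (−0.85, SE 0.33, limma adjusted p = 0.211). Neu1, a lysosomal sialidase, had the largest difference of all pathway genes, with 177.94, 326.8 and 213.74 TPM in TLR4ΔIEC libraries and 107.11, 43.85 and 44.04 TPM in WT libraries. The difference on the log2 scale was 1.95 (SE 0.39, limma adjusted p = 0.094), and Neu1 passed the threshold without WT replicate 1. Among the sulfation genes Gal3st2, which sulfates galactose, had 181.09, 166.48 and 154.35 TPM in TLR4ΔIEC libraries and 107.41, 95.16 and 83.08 TPM in WT libraries (0.81, SE 0.15, limma adjusted p = 0.0913), and Chst4, which sulfates N-acetylglucosamine, lay at 0.75.

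**Figure D4:**
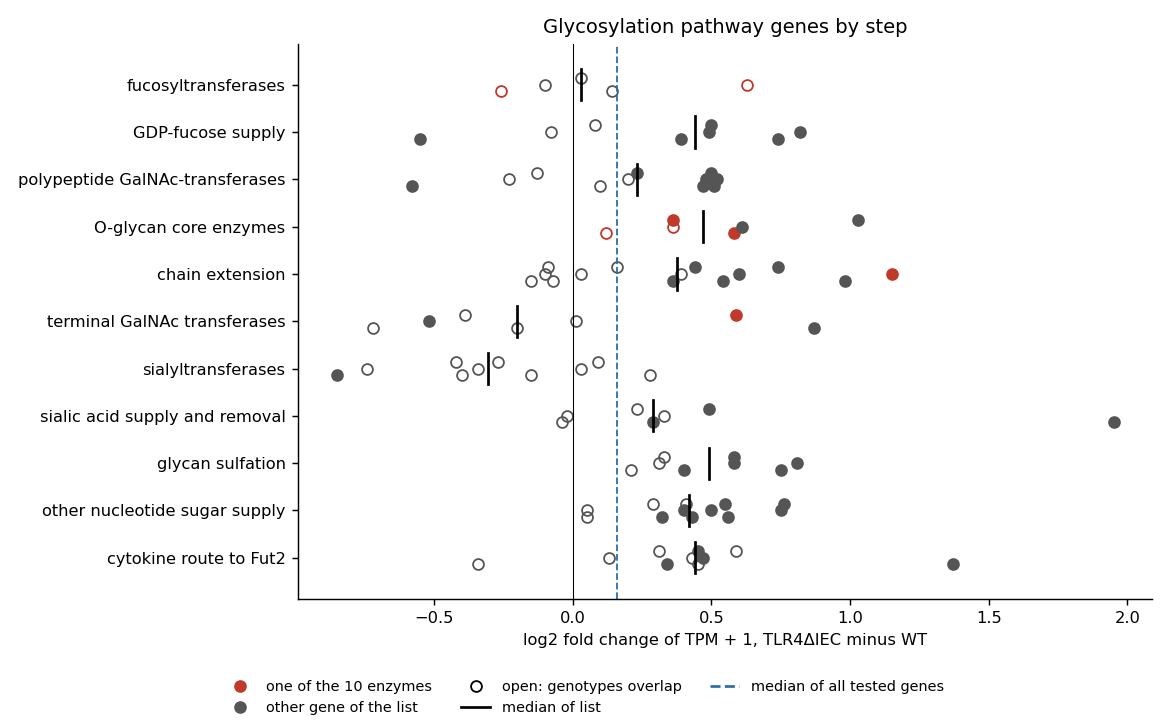
Log2 fold change of TPM + 1, TLR4ΔIEC minus WT (horizontal axis), of the 98 tested genes of the 11 glycosylation lists (rows), with the 10-enzyme set in red, filled points where the genotypes do not overlap, short bars at the list medians and a dashed line at the median of all tested genes, 0.16. Points of the sulfation and nucleotide sugar lists lie to the right of 0, and most sialyltransferases lie to the left of it.

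The cytokine route that is known to induce Fut2 in mouse epithelium, in which interleukin-22 and lymphotoxin from innate lymphoid cells act on epithelial receptors, was set beside Fut2. Il22 itself was at or near 0, with 0.07, 0 and 0.61 TPM in TLR4ΔIEC libraries and 0, 0.1 and 0 TPM in WT libraries. Its receptor chains were higher without overlap: Il22ra1 had 33.17, 22.63 and 24.06 TPM in TLR4ΔIEC libraries and 20.01, 17.8 and 18.22 TPM in WT libraries, and Il10rb lay at a log2 fold change of 0.45 (SE 0.12, limma adjusted p = 0.115). The lymphotoxin gene Ltb had 11.73, 2.26 and 23.66 TPM in TLR4ΔIEC libraries and 3.73, 5.34 and 9.03 TPM in WT libraries, which overlapped. Like Fut2, Ltb was lowest in TLR4ΔIEC replicate 2 and above all WT libraries in the other 2 TLR4ΔIEC libraries. Ltb had replicate 3 above replicate 1, however, where Fut2 had replicate 1 above replicate 3. The part of this route in the level of Fut2 was not tested.

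By the size of their difference, B3gnt7 and Fut2 were also set against the library profiles of 12098 tested genes with official symbols, as the root mean square difference of centred log2(TPM + 1) over the 6 libraries. The closest to B3gnt7 were Adm, the adrenomedullin gene (0.14), Insig2, a sterol sensor of the endoplasmic reticulum (0.179), and Rpgrip1 (0.194). The closest to Fut2 were Ifi209, an interferon-inducible gene (0.172), Ccr7, a chemokine receptor of lymphocytes and dendritic cells (0.224), and Sprr2a3, an epithelial small proline-rich protein gene (0.275). Ccr7 had 3.35, 0.28 and 3.23 TPM in TLR4ΔIEC libraries and 0.38, 0.64 and 1.63 TPM in WT libraries, a likeness to Fut2 that the choice of the closest genes fixes.

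Summed markers of several cell types and of intestinal position also differed between the genotypes. Summed over 16 goblet cell markers, TPM were 16706.2, 25873.0 and 16565.4 in TLR4ΔIEC libraries and 11146.9, 9692.8 and 10165.7 in WT libraries, and 5 of the 16 (Muc2, Fcgbp, Clca1, Tff3 and Zg16) were higher without overlap, against 24.1% of all tested genes. The sum was led by Zg16 and Tff3, the median log2 fold change of the 16 was 0.29, and the other 11 overlapped, down to −1.42 for Retnlb. Muc2, the secreted mucin that carries these chains, had the largest log2 fold change of the list, with 305.02, 429.12 and 254.64 TPM in TLR4ΔIEC libraries and 129.92, 89.23 and 94.08 TPM in WT libraries (log2 fold change 1.63, SE 0.24, limma adjusted p = 0.08). The sum of 18 enterocyte markers was 22560.7, 27959.4 and 26397.6 TPM in TLR4ΔIEC libraries and 18970.4, 21264.9 and 21180.4 TPM in WT libraries, with 8 higher and 4 lower without overlap, where 24.1% of all tested genes were higher and 3.53% lower. No marker of either list was at 0 in all libraries. The 11 ileal markers summed to 11347.5, 37279.8 and 27228.0 TPM in TLR4ΔIEC libraries and to 3622.9, 6245.0 and 8432.1 TPM in WT libraries, and 7 of the 11 were higher without overlap. Among 10 tested proximal markers, 7 were lower and 2 higher without overlap, and the sums overlapped (181.8 to 336.3 TPM in TLR4ΔIEC libraries and 311.2 to 1142.2 TPM in WT libraries). Colon markers summed to 1532.4 to 2305.1 TPM in TLR4ΔIEC libraries and to 785.4 to 819.9 TPM in WT libraries, with 4 of 7 tested higher without overlap and the defining marker Aqp8 at 0 in all 6 libraries. Paneth cell markers summed to 24364.2 to 83683.0 TPM in TLR4ΔIEC libraries and to 119747.8 to 138809.0 TPM in WT libraries, and 12 of the 13 were lower without overlap.

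The part of these markers in the enzyme values was not tested, but the levels of the enzymes relative to them were measured. Per 1000 TPM of summed goblet markers, the genotypes overlapped for B4galnt2, Gcnt3, Gcnt4 and B3gnt7, the enzymes that had stood apart. B3gnt7 came to 1.02, 0.988 and 1.85 in TLR4ΔIEC libraries and to 0.685, 1.26 and 1.1 in WT libraries. Set against Muc2 alone, B3gnt7 was 5.56, 5.96 and 12.0% of its TPM in TLR4ΔIEC libraries and 5.88, 13.6 and 11.9% in WT libraries, which also overlapped. Per 1000 TPM of summed enterocyte markers, B3gnt7 came to 0.752, 0.915 and 1.16 in TLR4ΔIEC libraries and to 0.403, 0.572 and 0.53 in WT libraries, without overlap (two-sided exact permutation p = 0.1), while B4galnt2, Gcnt3 and Gcnt4 overlapped. Fut1 and Fut4 were lower in TLR4ΔIEC libraries without overlap against either sum. Both sums were themselves higher in every TLR4ΔIEC library, which lowers any ratio to them, and as TPM Fut4 overlapped between the genotypes. How many of all genes come out lower by the same division was not counted, so no result particular to Fut4 can be drawn. Fut4 per 1000 TPM of goblet markers came to 0.608, 0.381 and 0.451 in TLR4ΔIEC libraries and to 0.908, 1.35 and 1.0 in WT libraries (two-sided exact permutation p = 0.1).

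**Figure D5:**
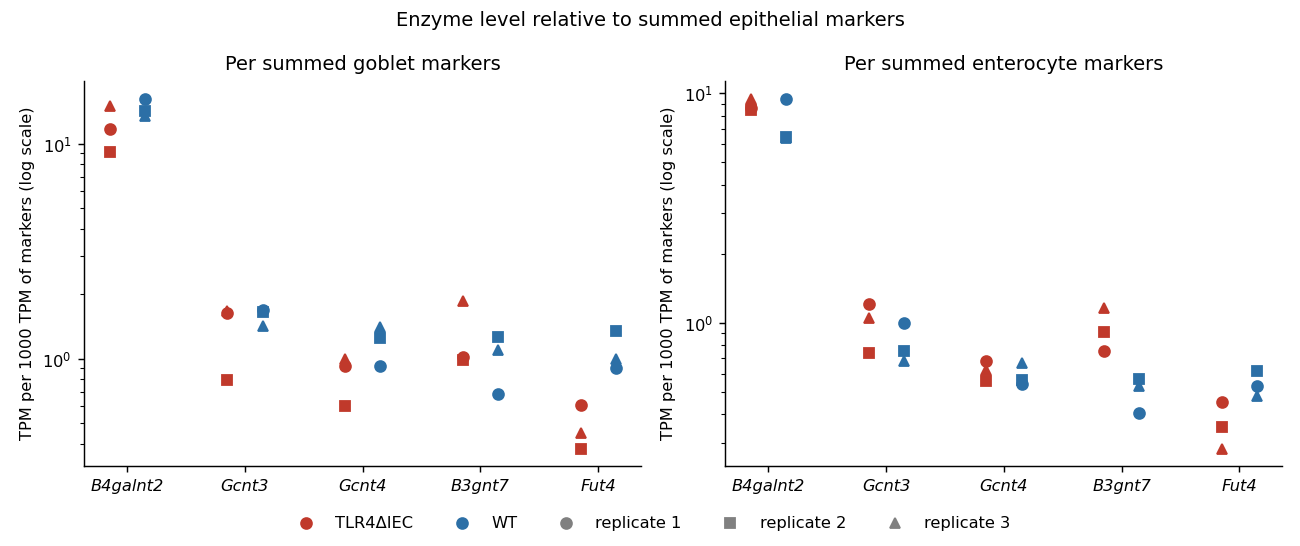
TPM of 5 enzymes per 1000 TPM of summed goblet cell markers (left) and per 1000 TPM of summed enterocyte markers (right), on logarithmic vertical axes, with 1 point for each library. B3gnt7 separates the genotypes on the right, at 0.752 to 1.16 in TLR4ΔIEC and 0.403 to 0.572 in WT, and not on the left. Fut4 is lower in TLR4ΔIEC on both sides, where the marker sums it is divided by are higher in TLR4ΔIEC.

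Some immune cell markers shared with Fut2 the library of lowest value and the 2 libraries of highest value. Of 12 B and plasma cell markers, 10 were lowest in TLR4ΔIEC replicate 2, and Cd79a, Cd79b, Ms4a1 and Ighm had their 2 highest values in TLR4ΔIEC replicates 1 and 3, as Fut2 did, but with replicate 3 above replicate 1, where Fut2 had replicate 1 above replicate 3. Cd79a, a B cell receptor component, had 27.24, 1.24 and 46.14 TPM in TLR4ΔIEC libraries and 6.71, 9.42 and 16.44 TPM in WT libraries. The whole list summed to 3162.7, 1251.3 and 4561.9 TPM in TLR4ΔIEC libraries and to 9743.7, 8572.4 and 8814.8 TPM in WT libraries, a sum led by Igha and Igkc, and no marker was at 0 in all libraries. Of the 12, 6 were lower in TLR4ΔIEC libraries without overlap and 0 higher, against 3.53% lower and 24.1% higher of all tested genes. Lowest in TLR4ΔIEC replicate 2 were also 8 of 13 T cell and innate lymphoid cell markers, 8 of 10 myeloid markers and 11 of 12 markers of stroma, muscle and endothelium. So were 11 of 13 Paneth cell markers, but 1 of 16 goblet cell markers and 1 of 18 enterocyte markers. A lowest value in that library was thus not particular to immune cell markers, and its share over all tested genes was not counted. The part of immune cells in the level of Fut2 was not tested.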

How the data were processed

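Total RNA of small intestine was extracted with TRIzol and treated with DNase I, per the labels' protocols. Per the submitters' processing notes, fastp, HISAT and RSEM were used with genome build GRCm38.p5, and no versions are given. Per the file headers, the deposited values are TPM of each gene in each library, and gene-level read totals cannot be recovered from it. Sample titles gave the groups and replicate numbers, and 3 mice per genotype are stated in the series' design.

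Genes averaging at least 1 TPM over all 6 libraries, 13458 in number, were tested on log2(TPM + 1), pseudocount 1 TPM, with limma 3.58.1 in R 4.3.3 (lmFit and eBayes with trend, genotype as the single term, two-sided, Benjamini-Hochberg adjustment at 0.05). Fold changes are TLR4ΔIEC minus WT on that scale, and changes of low genes come out too small on it. For single values exact permutation tests were used. Coordinates are those of GENCODE M21, and start-site windows those of RefSeq, GRCm38.p6. Figures were drawn with matplotlib 3.10.9.

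The 10 enzymes, the 11 pathway lists and the 14 marker lists were chosen with earlier results of these data known. Genes named beside the enzymes are, per pathway list, up to 3 genes of largest fold change without overlap and the gene of highest mean TPM, and per marker list up to 2 genes of highest mean. Muc2, Fcgbp, Clca1, Retnlb, Fuca1, Gfus, Slc35c1, Il22, Ltb, Vil1 and the 4 B cell genes were added after their values were seen, and not every gene picked this way is reported here. Alternatives were no filter or one at a mean of 5 TPM, other pseudocounts (0.1 and 5 TPM), 4 scalings (median-of-ratios, quantile normalization, without the 20 highest genes, and without 85 alpha-defensin, mitochondrial and 18S-like genes), array weights, robust eBayes, eBayes without trend, a replicate block and each library left out.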

Additional observations from a re-analysis of the deposited data

How the results depend on the processing

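Of 144 alternative values of the enzymes' log2 fold changes, 138 kept their direction and their side of the threshold, 1 passed the threshold and 5 turned direction. The value that passed was B3gnt7 at 1.38 without TLR4ΔIEC replicate 1. Those that turned were all of C1galt1c1: −0.03 under median-of-ratios scaling, −0.12 under quantile normalization, −0.05 without the 20 highest genes, −0.20 without alpha-defensin, mitochondrial and 18S-like genes, and −0.03 without TLR4ΔIEC replicate 1, where leaving out 1 library gave −0.03 to 0.26. The cause was not tested. Leaving out 1 library gave 0 to 1 enzymes and 0 to 5 pathway genes past the threshold.

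The genotypes did not overlap for 5 enzymes (Fut1, B4galnt2, Gcnt3, Gcnt4 and B3gnt7). There were 3 under median-of-ratios scaling (Fut1, Gcnt3 and B3gnt7) and 4 without the 20 highest genes (Fut1, Fut4, B4galnt2 and B3gnt7). There were 3 without alpha-defensin, mitochondrial and 18S-like genes (Fut1, Fut4 and B3gnt7) and 2 of the 8 tested under quantile normalization (Fut4 and B3gnt7). Per summed goblet marker TPM, an alternative chosen after seeing the data, there were 2 (Fut1 and Fut4), and per summed enterocyte marker TPM, chosen likewise, 3 (Fut1, Fut4 and B3gnt7). With 1 library left out there were 5 to 7. Shares of all tested genes without overlap were counted only for TPM as deposited (24.1% higher and 3.53% lower), so the other counts have no such share beside them.

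Over all genes, 16 passed. There were 0 with no filter (3377 at an unadjusted p under 0.05, of more genes tested), 7 at a mean of at least 5 TPM, 10 without alpha-defensin, mitochondrial and 18S-like genes, 136 with array weights and 0 to 367 with 1 library left out: 367 without TLR4ΔIEC replicate 1, 0 without TLR4ΔIEC replicate 2, 5 without TLR4ΔIEC replicate 3, 32 without WT replicate 1, 0 without WT replicate 2 and 3 without WT replicate 3. The split of higher and lower calls was 6 and 10. Under median-of-ratios scaling it was 3 and 15 (median of all genes 0.03), under quantile normalization 4 and 14 (0.02), without the 20 highest genes 3 and 8 (0.01), and without alpha-defensin, mitochondrial and 18S-like genes 1 and 9 (−0.12), against a median of 0.16 as deposited.

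A replicate block left 1 gene past the threshold and none of the enzymes (0, with 3 at an unadjusted p under 0.05, limma). Deviations of same-numbered libraries correlated at −0.037, 0.035 and 0.118, and not every library correlated best with its own number. With so few libraries such values cannot show whether the numbers pair the libraries, so pairing is unknown. Depth is unknown, which limits what can be said of Fut1, St6galnac1 and Il22.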
